A study of Sus scrofa with 12 samples.

Results

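Matrix metalloproteinases (MMPs) and their tissue inhibitors (TIMPs) were followed in cultured porcine smooth muscle cells. The 8 genes were named by symbol as MMP1, MMP2, MMP3, MMP9, MMP14, TIMP1, TIMP2 and TIMP3, and each was looked up in a table of read counts for 21153 genes. A row was matched for 6 of the 8, and 5 of these passed the filter on low counts that left 12444 genes for testing. MMP3 and TIMP2 could not be tied to a row by identifier and were not analysed here, and MMP9 had too few counts to test.

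The cells came from coronary artery of 3 pigs and were primary cultures whose labels describe a differentiated/contractile phenotype. All groups shared passages 6 to 11, 35 mm dishes seeded with 60 cells/mm2, serum (fetal calf, 10%), and 24 h of culture before treatment. PDGF-BB+S100A4 cells received 30 ng/ml PDGF-BB and 1 µg/ml S100A4 together, S100A4 cells received 1 µg/ml S100A4, and PDGF-BB cells received 30 ng/ml PDGF-BB, each for 4 h. Control cells were given no PDGF-BB and no S100A4. There were 3 libraries a group in 4 groups, numbered 1 to 3, and RNA was sequenced as single-end reads of 100 nt.

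PDGF-BB, the B-chain dimer of platelet-derived growth factor, drives growth and migration of smooth muscle cells. The calcium-binding protein S100A4 works inside cells and, once released, from outside them. MMPs are zinc-dependent proteases that are made as inactive proenzymes and, once activated, cut collagens, elastin, proteoglycans and other matrix proteins. TIMPs bind the active site of MMPs and block it, and TIMP2 can also bridge proMMP2 to MMP14 at the cell surface, where proMMP2 is activated. In the artery wall, the balance of MMPs and TIMPs is known for its part in matrix turnover and in the migration of smooth muscle cells into the intima.

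The libraries held 21455021 to 32448438 counts, so that 3 counts in the shallowest stand for 0.141 CPM (counts scaled to library size, here with TMM factors). Libraries of the same number lay close together across genes, and replicate 2 differed from the rest in its cell markers. The summed level of 8 smooth muscle markers was 7920 to 9300 CPM in the 4 replicate 2 libraries, 17500 to 19400 CPM in the replicate 1 libraries and 18400 to 21900 CPM in the replicate 3 libraries. The 6 fibroblast markers in the table summed to 917 to 1060 CPM in replicate 2, 421 to 505 CPM in replicate 1 and 269 to 329 CPM in replicate 3. LUM made up most of that sum, at 721 CPM on average in replicate 2, whereas PDPN averaged 7.11 CPM in replicate 2 against 26.5 and 23.8 CPM in replicates 1 and 3, and TCF21 16.0 against 20.6 and 26.9 CPM. The 6 pericyte markers summed to 327 to 439 CPM in replicate 2, 1170 to 1780 CPM in replicate 1 and 1550 to 1960 CPM in replicate 3. CSPG4 and NOTCH3 made up most of that sum, at 278 and 73.5 CPM on average in replicate 2. They averaged 994 and 420 CPM in replicate 1 and 1104 and 574 CPM in replicate 3. MCAM and KCNJ8 were also lowest in replicate 2. RGS5 was instead highest there, at 6.57 CPM against 1.47 and 0.458 CPM in replicates 1 and 3, as was ABCC9, at 1.15 against 0.902 and 1.12 CPM. By treatment, the fibroblast sum was 296 to 954 CPM in PDGF-BB+S100A4, 329 to 1050 CPM in S100A4, 287 to 917 CPM in PDGF-BB and 269 to 1060 CPM in control libraries. The 5 endothelial markers in the table summed to 133 to 190 CPM in PDGF-BB+S100A4, 59.5 to 136 CPM in S100A4, 120 to 201 CPM in PDGF-BB and 55.2 to 127 CPM in control libraries. ERG carried the difference in that sum: in replicate 1 it had 113 CPM in PDGF-BB+S100A4 and 101 CPM in PDGF-BB against 35.7 CPM in control, where CDH5 had 16.8 and 15.3 against 15.9 CPM and PECAM1 3.13 and 3.68 against 3.58 CPM. TEK had at most 1.42 CPM and KDR 0.189 CPM in any library. By number, the endothelial sum was 127 to 201 CPM in replicate 2, 55.2 to 133 CPM in replicate 1 and 76.9 to 155 CPM in replicate 3. PECAM1 averaged 22.1 CPM in replicate 2 against 3.51 and 11.1 CPM in replicates 1 and 3, and CDH5 32.9 against 16.2 and 24.7 CPM. Of the 6 macrophage markers in the table PTPRC was at 0 and CD163 under 10 counts in every library, with a sum of 7.25 to 11.5 CPM. The 4 neutrophil markers in the table were under 10 counts in every library, with MPO and S100A8 at 0, and so were the 4 epithelial ones. The part of these markers in the results below was not tested, and in bulk RNA fewer cells of a type and less RNA per cell cannot be told apart.

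Each comparison was tested with edgeR's quasi-likelihood test over all 12 libraries, first with the 4 group means alone and then with the replicate number as a block, which compares libraries of the same number. With groups alone, none of the 5 tested genes passed an adjusted p of 0.05 in any of the 7 comparisons, none had an unadjusted p under 0.05, and DESeq2 with groups alone also called 0. Of all 12444 genes, 152 to 4143 had an unadjusted p under 0.05 with groups alone, depending on the comparison. The libraries of every pair of groups overlapped for all 5 genes, and the share of all genes that overlapped was not counted. With the block, MMP1, MMP2, TIMP1 and TIMP3 passed in at least 1 comparison each, and MMP14 passed in none. The share of all genes that passed in at least 1 comparison was not counted. It cannot be below the 56.1% called for PDGF-BB+S100A4 against control, so passing in at least 1 is no trait of these genes. By comparison, the block called 0.113% to 56.1% of all genes, as given further below. For these 5 genes, adjusted p-values below come from edgeR with the block unless stated otherwise.

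**Figure D1:**
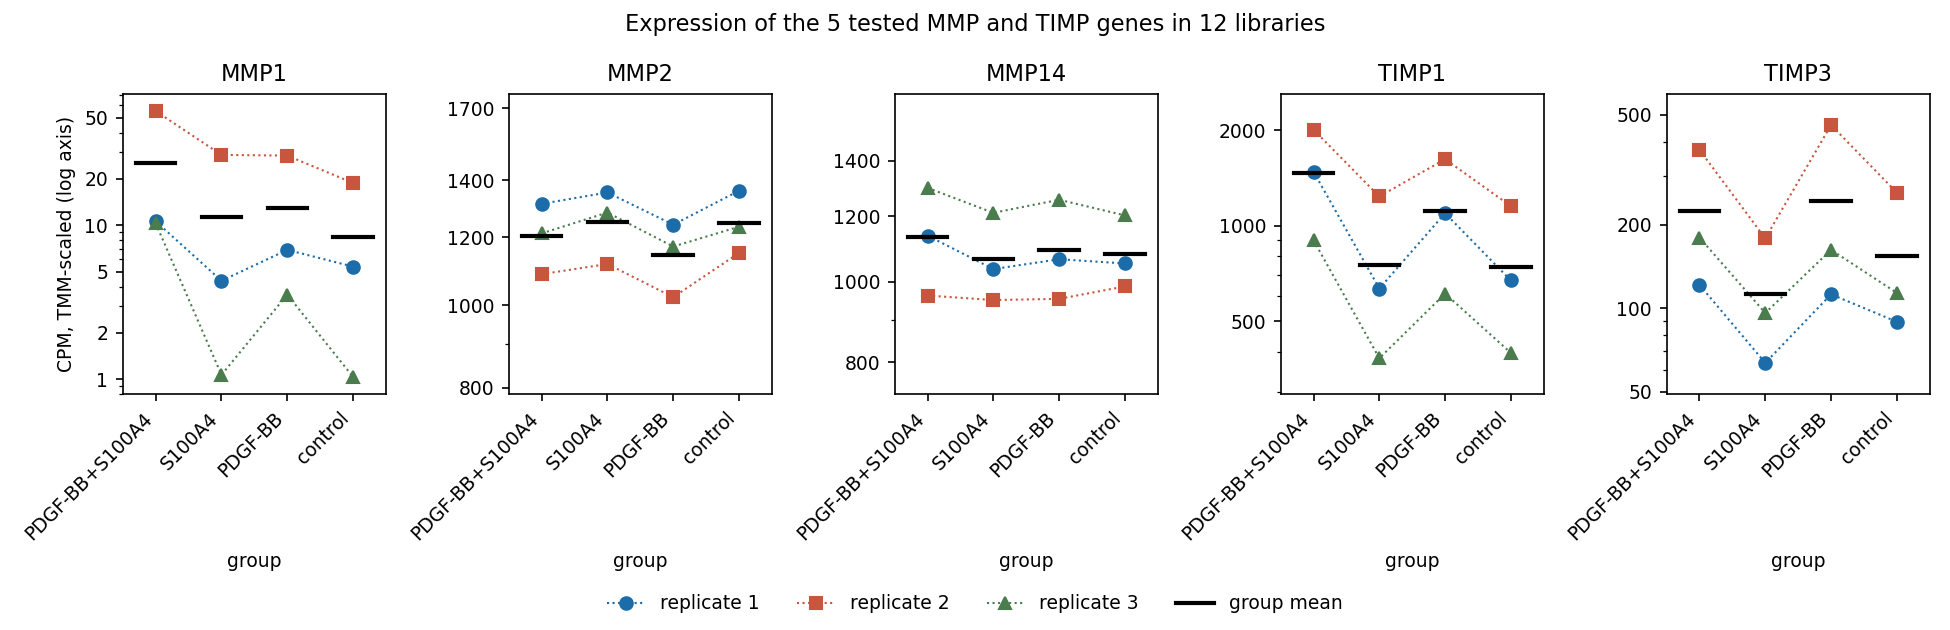
Level of each tested gene (CPM, log axis, a separate range for each gene) in every library, with groups along the x axis, dotted lines joining libraries of the same replicate number, and black bars for the group means. The lines run nearly in parallel for TIMP1 and in the same directions for TIMP3. Replicate 2 lies above replicates 1 and 3 for MMP1, TIMP1 and TIMP3 and below them for MMP2 and MMP14.

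MMP1, the interstitial collagenase that cuts fibrillar collagens I and III, lay at chromosome 9, 33411738 to 33420205 (ENSSSCG00000014985; coordinates here and below are RefSeq's on Sscrofa11.1). MMP1 had 10.6, 55.1 and 10.3 CPM in PDGF-BB+S100A4 libraries 1, 2 and 3, and 4.36, 28.6 and 1.07 CPM in S100A4 libraries. It had 6.92, 28.3 and 3.55 CPM in PDGF-BB libraries and 5.39, 18.8 and 1.04 CPM in control libraries. The PDGF-BB+S100A4 library was the highest of its number in all 3 numbers, although the replicate 2 library of every other group exceeded PDGF-BB+S100A4 libraries 1 and 3. The lowest library, control 3, held 22 counts of MMP1, and the highest, PDGF-BB+S100A4 2, held 1388.

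MMP1 rose with PDGF-BB+S100A4 against control by 1.67 ± 0.27 on the log2 scale (SE, n = 3 libraries a group), a 3.18-fold change (adjusted p = 0.000134 with the block, 0.461 with groups alone). The log2 differences between PDGF-BB+S100A4 and control CPM of the same number were 0.97, 1.55 and 3.22 in replicates 1, 2 and 3. The widest of these was in replicate 3, where control MMP1 was lowest, and the block fit without replicate 3 gave 1.36. MMP1 also rose with PDGF-BB+S100A4 against S100A4, by 1.38 ± 0.26 (adjusted p = 0.000624 with the block, 0.657 with groups alone). Without replicate 2 the block fit of that comparison gave 2.06, against 1.02 without replicate 3.

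Neither protein alone changed MMP1 past the threshold. The log2 fold change was 0.29 ± 0.29 for S100A4 against control (95% interval −0.34 to 0.92, adjusted p = 0.609) and 0.64 ± 0.28 for PDGF-BB against control (0.03 to 1.26, adjusted p = 0.0765), which passed in 5 of the 19 alternatives with the block (lowest adjusted p = 0.0182). MMP1 was 1.02 ± 0.25 higher on the log2 scale in PDGF-BB+S100A4 than in PDGF-BB, a 2.03-fold change (adjusted p = 0.0244 with the block, 1 with groups alone). That call was lost in 6 of the 19 alternatives with the block: without replicate 1 (adjusted p = 0.0784), without any 1 of the 3 PDGF-BB libraries, without PDGF-BB+S100A4 replicate 3, and with DESeq2 (adjusted p = 0.216). The effect of S100A4 on MMP1 was 0.73 ± 0.39 larger with PDGF-BB than without it (interval −0.10 to 1.56), which did not pass (adjusted p = 0.568).

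MMP2 (gelatinase A, ENSSSCG00000002829, chromosome 6, 30059247 to 30087031) degrades denatured collagens and basement membrane collagen IV. MMP2 had 1314, 1087 and 1213 CPM in PDGF-BB+S100A4 libraries and 1355, 1117 and 1283 CPM in S100A4 libraries. It had 1242, 1021 and 1171 CPM in PDGF-BB libraries and 1361, 1151 and 1235 CPM in control libraries. All 12 libraries lay within 1.33-fold of each other, with PDGF-BB the lowest of the 4 groups in every number. MMP2 fell with PDGF-BB against control by 0.13 ± 0.03 on the log2 scale (adjusted p = 0.00386 with the block, 0.563 with groups alone). It was 0.13 ± 0.03 higher in S100A4 than in PDGF-BB (adjusted p = 0.00407 with the block, 0.595 with groups alone). The call against control was lost without replicate 1 (adjusted p = 0.0714) or replicate 2 (0.0852), and that between S100A4 and PDGF-BB without replicate 1 (0.0559) or replicate 3 (0.0536). MMP2 differed by −0.05 ± 0.03 between PDGF-BB+S100A4 and control (interval −0.12 to 0.01) and by 0.00 ± 0.03 between S100A4 and control (−0.07 to 0.07). With upper-quartile scaling and the block, MMP2 passed as lower in PDGF-BB+S100A4 than in control (−0.13, adjusted p = 0.0026) and than in S100A4 (−0.11, adjusted p = 0.00905).

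MMP9 (gelatinase B, ENSSSCG00000007436, chromosome 17, 48179690 to 48186782) shares the gelatin substrates of MMP2 and is typical of neutrophils and macrophages. MMP9 had 4, 2 and 2 counts in PDGF-BB+S100A4 libraries, 3, 2 and 0 in S100A4, 0, 1 and 1 in PDGF-BB and 0, 3 and 1 in control libraries. These 19 counts in all left MMP9 at or near the 3-count floor in every group, so no fold change is given.

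MMP14 (MT1-MMP, ENSSSCG00000002039, chromosome 7, 76174502 to 76185931) is anchored in the membrane, cuts collagen at the cell surface and activates proMMP2. MMP14 had 1137, 962 and 1298 CPM in PDGF-BB+S100A4 libraries and 1036, 950 and 1211 CPM in S100A4 libraries. It had 1065, 954 and 1256 CPM in PDGF-BB libraries and 1052, 987 and 1202 CPM in control libraries. The order of the 3 numbers was the same in each group, with replicate 3 highest and replicate 2 lowest. MMP14 did not pass in any of the 7 comparisons with the block. Its log2 fold change against control was 0.06 ± 0.04 with PDGF-BB+S100A4 (interval −0.01 to 0.14), −0.02 ± 0.04 with S100A4 (−0.10 to 0.05) and 0.01 ± 0.04 with PDGF-BB (−0.07 to 0.09). Of the 19 alternatives with the block, MMP14 passed in 2 for PDGF-BB+S100A4 against control and in 3 for PDGF-BB+S100A4 against S100A4 (0.08 ± 0.04, adjusted p = 0.063). The sign of its PDGF-BB and PDGF-BB+S100A4 values against control turned under upper-quartile scaling.

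TIMP1 (ENSSSCG00000012277, chromosome X, 42103251 to 42106289) is a secreted inhibitor that binds many soluble MMPs and is a poor inhibitor of MMP14. TIMP1 had 1479, 2005 and 899 CPM in PDGF-BB+S100A4 libraries and 633, 1235 and 382 CPM in S100A4 libraries. It had 1094, 1619 and 610 CPM in PDGF-BB libraries and 671, 1151 and 397 CPM in control libraries. In each number the PDGF-BB+S100A4 library was highest and the PDGF-BB library next, with S100A4 and control close together below them. PDGF-BB+S100A4 averaged 1461 ± 553 CPM against 740 ± 382 CPM in control (SD, n = 3 each), and the libraries of both groups overlapped across numbers.

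TIMP1 rose 2.06-fold with PDGF-BB+S100A4 against control, a log2 change of 1.04 ± 0.08 (adjusted p = 8.91e-08 with the block, 0.24 with groups alone). The same-number log2 differences were 1.14, 0.80 and 1.18. TIMP1 rose 1.52-fold with PDGF-BB against control (log2 0.61 ± 0.08, adjusted p = 2.29e-05 with the block, 0.572 with groups alone). With S100A4 against control it differed by −0.01 ± 0.08 (interval −0.18 to 0.16, adjusted p = 0.967). TIMP1 thus rose in both groups given PDGF-BB, and its value for S100A4 alone lay near 0. It was 2.07-fold higher in PDGF-BB+S100A4 than in S100A4 (log2 1.05 ± 0.08, adjusted p = 1.69e-07 with the block, 0.293 with groups alone) and 0.61 ± 0.08 lower on the log2 scale in S100A4 than in PDGF-BB (2.48e-05 and 0.633).

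Adding S100A4 to PDGF-BB raised TIMP1 by a further 0.44 ± 0.08 on the log2 scale, or 1.35-fold (adjusted p = 0.0029 with the block, 1 with groups alone), with same-number differences of 0.43, 0.31 and 0.56. That call was lost without replicate 3 (adjusted p = 0.0916). The effect of S100A4 on TIMP1 was 0.45 ± 0.11 larger with PDGF-BB than without it (interval 0.21 to 0.68, unadjusted p = 0.00128), and over all 12444 genes this did not pass in edgeR (adjusted p = 0.171). It passed in 4 of the 19 alternatives with the block, among them DESeq2 (0.44 ± 0.12, adjusted p = 0.026) and the fit without replicate 2 (0.55, adjusted p = 0.000287).

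TIMP3 (ENSSSCG00000031866, chromosome 5, 12185816 to 12242599) binds to the matrix, and also inhibits ADAM and ADAMTS proteases. TIMP3 had 121, 374 and 180 CPM in PDGF-BB+S100A4 libraries and 63.5, 179 and 96.1 CPM in S100A4 libraries. It had 112, 459 and 163 CPM in PDGF-BB libraries and 89.3, 262 and 114 CPM in control libraries. The S100A4 library was the lowest of its number in all 3 numbers, and both libraries with PDGF-BB were above control. Of the 5 tested genes, TIMP3 alone was called both with S100A4 and with PDGF-BB against control, and with opposite signs.

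TIMP3 fell 1.35-fold with S100A4 against control (log2 −0.43 ± 0.09, adjusted p = 0.00764 with the block, 1 with groups alone). The same-number differences were −0.49, −0.55 and −0.24, and the call was lost without replicate 1 (adjusted p = 0.0818) or without S100A4 replicate 2 (0.0819). TIMP3 rose 1.48-fold with PDGF-BB against control (log2 0.57 ± 0.09, adjusted p = 0.00013 with the block, 0.608 with groups alone), so that it was 2.00-fold lower in S100A4 than in PDGF-BB (log2 −0.997 ± 0.09, adjusted p = 1.17e-06 with the block, 0.361 with groups alone). With PDGF-BB+S100A4 it rose 1.45-fold against control (log2 0.54 ± 0.09, adjusted p = 0.00016 with the block, 0.638 with groups alone) and 1.96-fold against S100A4 (0.97 ± 0.09, 1.35e-06 and 0.383).

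On top of PDGF-BB, the S100A4 effect on TIMP3 did not pass: the difference between PDGF-BB+S100A4 and PDGF-BB was −0.03 ± 0.09 (interval −0.22 to 0.16, adjusted p = 0.904). The numbers differed in direction, with PDGF-BB+S100A4 below PDGF-BB in replicate 2 and above it in replicates 1 and 3. The S100A4 effect was 0.40 ± 0.13 higher with PDGF-BB than without it (interval 0.13 to 0.68, unadjusted p = 0.00726). Over all genes that difference did not pass (adjusted p = 0.342). It passed in 2 of the 19 alternatives with the block, one of them without replicate 2 (0.47, adjusted p = 0.0119).

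**Figure D2:**
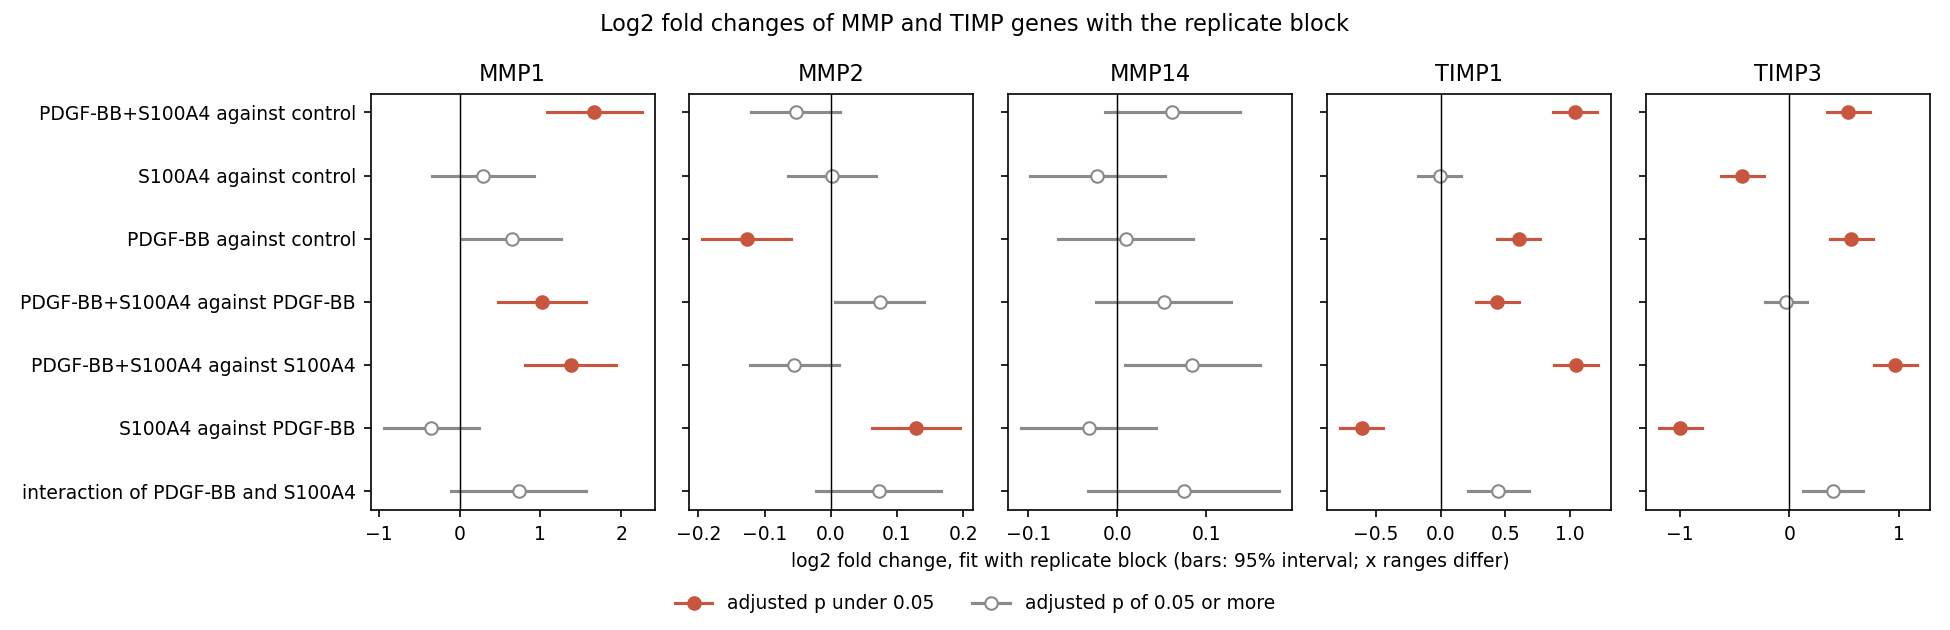
Log2 fold change (x axis, with its own range for each gene) of the 5 tested genes in the 7 comparisons (y axis), from the fit with the replicate block; bars are 95% intervals, and filled red points have an adjusted p under 0.05. TIMP1 lies at 1.04 for PDGF-BB+S100A4 and 0.61 for PDGF-BB against control, TIMP3 lies at −0.43 for S100A4 against control, and no MMP14 point is filled.

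Set against all genes, the counts of called MMP and TIMP genes were as follows. For PDGF-BB+S100A4 against control the block called 3 of the 5 tested genes higher and 0 lower, where 56.1% of all genes tested were called (22.0% with groups alone). For S100A4 against control it called 0 higher and 1 lower, where 10.7% of all genes were called (0.563% with groups alone). Over all genes that comparison moved with single libraries: the block called 1336 genes in all, 697 without S100A4 replicate 2, 863 without S100A4 replicate 1 and 827 without control replicate 3, and groups alone called 70, 36 without control replicate 1 and 40 without control replicate 3. For PDGF-BB against control it called 2 higher and 1 lower, where 48.8% of all genes were called (14.7% with groups alone). In the comparisons of PDGF-BB+S100A4 and PDGF-BB with control, 3 of 5 was thus near the share of all genes.

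Between treatments, PDGF-BB+S100A4 against PDGF-BB had 2 of the 5 called higher, where 7.14% of all genes were called with the block and 0.273% with groups alone. That block count over all genes was 888, and 508 without PDGF-BB+S100A4 replicate 3. PDGF-BB+S100A4 against S100A4 had 3 higher, where the shares were 47.8% and 15.0%. S100A4 against PDGF-BB had 1 higher and 2 lower, where they were 43.1% and 11.1%. The interaction called 0 of the 5, where it called 0.113% of all genes with the block and 0.00% with groups alone. With groups alone 152 genes had an unadjusted interaction p under 0.05, and DESeq2 called 1 gene with groups alone and 60 with the block.

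The replicate number accounted for more of the variation in these genes than treatment did. It held 73.4% of the sum of squares of log2 CPM for MMP1, 80.2% for MMP2, 93.1% for MMP14, 63.1% for TIMP1 and 73.3% for TIMP3, where treatment held 20.2%, 18.0%, 3.93%, 35.2% and 25.0%. The medians over all genes tested were 40.9% for number and 36.9% for treatment. From the lowest to the highest of the 12 libraries, CPM spanned 53.1-fold for MMP1, 5.25-fold for TIMP1, 7.23-fold for TIMP3 and 1.37-fold for MMP14. Replicate 2 had the lowest smooth muscle and pericyte sums, though the highest RGS5, and the highest fibroblast sum, PECAM1 and CDH5. It was the high number for MMP1, TIMP1 and TIMP3 and the low number for MMP2 and MMP14.

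Because MMPs and TIMPs act against each other, changes in the within-library ratio of an MMP to TIMP1 RNA were taken between libraries of the same number. The log2 ratio of MMP2 to TIMP1 changed by −1.09 ± 0.18 with PDGF-BB+S100A4, by 0.02 ± 0.14 with S100A4 and by −0.73 ± 0.09 with PDGF-BB, each against control (SD, n = 3 pairs). That of MMP14 to TIMP1 changed by −0.98 ± 0.12, −0.01 ± 0.13 and −0.60 ± 0.08 in the same order. Both ratios were lower than control in all 3 pairs with PDGF-BB+S100A4 and in all 3 with PDGF-BB. With 3 pairs no exact paired test can reach 0.05, so these ratios are given without a test.

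The ratio of MMP1 to TIMP1 had no common direction against control. Its log2 change with PDGF-BB+S100A4 against control was −0.17, 0.75 and 2.04 in replicates 1, 2 and 3, and with PDGF-BB it was −0.35, 0.10 and 1.08. Between PDGF-BB+S100A4 and PDGF-BB it was 0.18, 0.65 and 0.96, and between PDGF-BB+S100A4 and S100A4 it was 0.05, 0.24 and 1.94, above 0 in all 3 pairs each. The ratio of TIMP3 to TIMP1 changed by −0.50 ± 0.21 with PDGF-BB+S100A4 and by −0.42 ± 0.23 with S100A4, below 0 in all 3 pairs each.

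**Figure D3:**
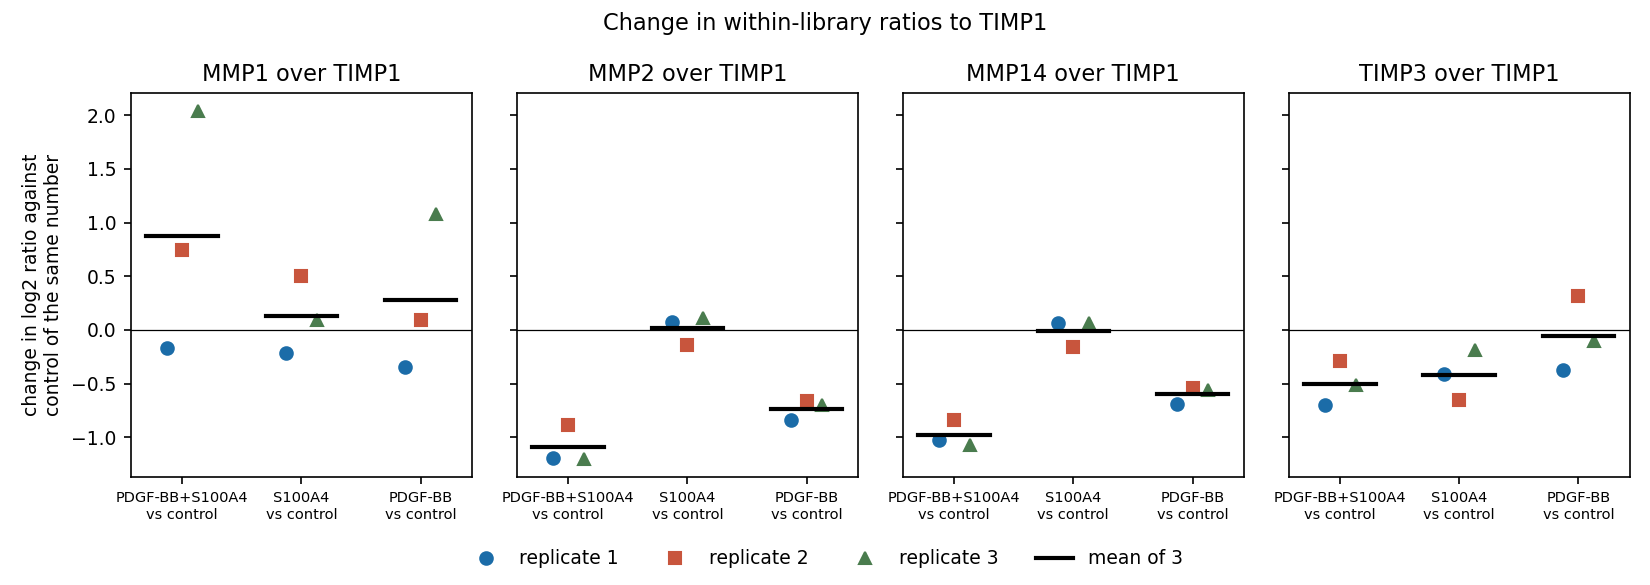
Change in the log2 ratio of each gene to TIMP1 in the same library (y axis) between a treatment and the control of the same number (x axis); points are the 3 replicate numbers and black bars their means. MMP2 and MMP14 lie below 0 in all pairs with PDGF-BB+S100A4 and PDGF-BB, while MMP1 runs from −0.17 to 2.04 with PDGF-BB+S100A4.

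After the mean of each number was removed, the genes varied together over the 12 libraries to different degrees. Pearson's r of log2 CPM was 0.893 for MMP1 with TIMP1, 0.805 for TIMP1 with TIMP3, 0.778 for MMP14 with TIMP1 and −0.75 for MMP2 with TIMP3. The sign for MMP1 with MMP14 depended on that step, with r = 0.712 after it and −0.706 before it. These libraries share treatments and numbers, so the values are descriptions with no p.

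Among 9417 tested genes with a symbol and at least 1 log2 CPM on average, those most like TIMP1 by the same measure were KLHL26 (r = 0.992), PSMD8 (0.99), a proteasome subunit, and RBM10 (0.989). Those most like TIMP3 were SDC1, the cell surface proteoglycan syndecan-1 (0.99), HYAL2, a hyaluronidase (0.972), and FOXS1 (0.966). SDC1, HYAL2 and FOXS1 were picked by this correlation, so sharing the signs of TIMP3 is no separate finding. Block log2 fold changes against control for PDGF-BB+S100A4, S100A4 and PDGF-BB were 0.52, −0.36 and 0.55 for SDC1. They were 0.19, −0.13 and 0.18 for HYAL2 and 0.53, −0.34 and 0.68 for FOXS1. Those most like MMP1 were EDEM1 (0.936) and SEC11C (0.928), which act in the endoplasmic reticulum, and MRPS22 (0.934), a mitochondrial ribosome protein. Those most like MMP2 were VAMP5 (0.947), FNBP1L (0.942) and CREBBP (0.941).

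MMP1 lies in a cluster of 8 MMP genes on chromosome 9, from 33214590 to 33616700, with MMP7, MMP20, MMP27, MMP8, MMP3, MMP12 and MMP13. MMP7, MMP8, MMP20 and MMP27 were at 0 in all 12 libraries, and MMP13, another collagenase, had at most 10 counts. MMP12, the macrophage elastase, had 0, 25 and 14 counts in PDGF-BB+S100A4 libraries, 1, 15 and 0 in S100A4, 2, 2 and 0 in PDGF-BB and 3, 3 and 0 in control libraries. MMP12 reached the filter's minimum count of 10 only in PDGF-BB+S100A4 libraries 2 and 3 and S100A4 library 2. It was thus testable mainly through the group where it was high. The block gave log2 2.76 ± 0.92 for PDGF-BB+S100A4 against control (adjusted p = 0.0195, 0.239 with groups alone), which is no support for a rise. The library of PDGF-BB+S100A4 replicate 1 had 0 counts of MMP12, so the direction was not shared by all 3 numbers.

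Of 18 other MMPs and TIMP4, 16 had a row and 11 were tested. With groups alone 1 rose with PDGF-BB+S100A4, none changed with S100A4, and 1 rose and 1 fell with PDGF-BB, each against control. With the block 4 rose and 4 fell with PDGF-BB+S100A4 (median log2 −0.19 over the 11, against −0.03 over all genes), 1 rose and 0 fell with S100A4 (median −0.10, against −0.02), and 1 rose and 4 fell with PDGF-BB (median −0.19, against −0.02). The shares of all genes called were 56.1%, 10.7% and 48.8% with the block in the same order, and 22.0%, 0.563% and 14.7% with groups alone. The 4 that rose with PDGF-BB+S100A4 included MMP12, with the limit given above.

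MMP25, a protease tied to the membrane by a lipid anchor and known from leukocytes, had 8.96, 2.86 and 9.74 CPM in PDGF-BB+S100A4 libraries and 2.05, 0.966 and 2.48 CPM in S100A4 libraries. It had 6.92, 3.23 and 8.41 CPM in PDGF-BB libraries and 1.41, 0.983 and 1.65 CPM in control libraries. Every library with PDGF-BB was above every library without it. MMP25 rose with PDGF-BB+S100A4 by 2.42 ± 0.54 (adjusted p = 0.0103) and with PDGF-BB by 2.20 ± 0.54 (0.022), and had a value of 0.45 ± 0.54 with S100A4 (1), all with groups alone. Replicate 2, the high number for MMP1, was the low number for MMP25.

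MMP11, stromelysin-3, had 33.8, 28.5 and 33.4 CPM in PDGF-BB+S100A4 libraries and 36.0, 31.4 and 35.3 CPM in S100A4 libraries. It had 24.0, 22.0 and 21.3 CPM in PDGF-BB libraries and 27.4, 27.6 and 27.8 CPM in control libraries. Every PDGF-BB library was below, and every S100A4 or PDGF-BB+S100A4 library above, the 3 control libraries. MMP11 fell with PDGF-BB against control by 0.30 ± 0.08 (adjusted p = 0.0391 with groups alone). It was higher in PDGF-BB+S100A4 than in PDGF-BB by 0.51 ± 0.08 (adjusted p = 0.0499 with groups alone) and in S100A4 than in PDGF-BB by 0.61 ± 0.08 (adjusted p = 0.0017 with groups alone). Against control it rose with S100A4 by 0.31 ± 0.06 with the block (adjusted p = 0.0058), and groups alone gave 0.31 ± 0.08 (adjusted p = 0.231). It also rose with PDGF-BB+S100A4 against control, by 0.20 ± 0.06 with the block (adjusted p = 0.0142, 0.107 with groups alone).

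With the block, MMP19 rose by 0.22 ± 0.06 with PDGF-BB+S100A4 against control (adjusted p = 0.00557, 0.0665 with groups alone). MMP16, a membrane-type MMP like MMP14, fell by 0.47 ± 0.10 in the same comparison (adjusted p = 0.00132, 0.103 with groups alone). It also fell with PDGF-BB against control, by 0.27 ± 0.10 (adjusted p = 0.0341 with the block, 0.401 with groups alone).

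**Figure D4:**
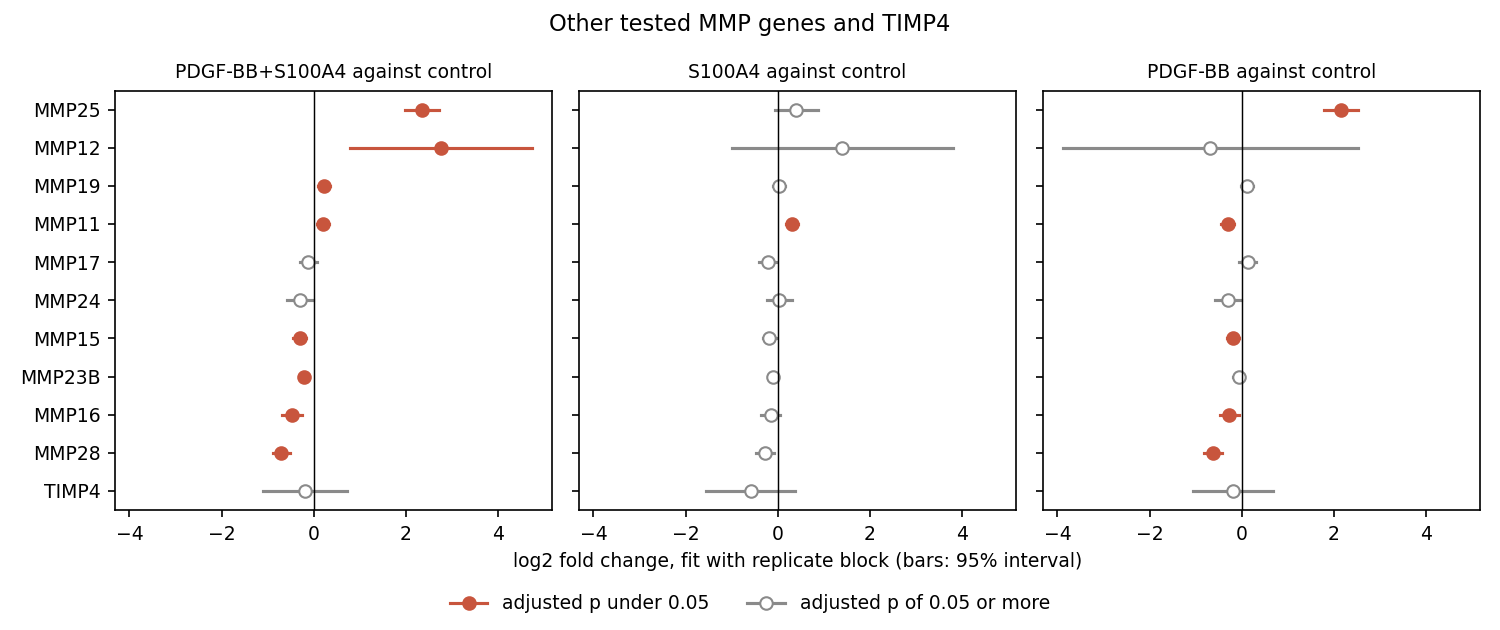
Log2 fold change against control (x axis) of the 10 other tested MMP genes and TIMP4 (y axis), from the fit with the replicate block, in a panel for each treatment; bars are 95% intervals and filled red points have an adjusted p under 0.05. MMP25 stands to the right with PDGF-BB+S100A4 and PDGF-BB, and the wide bars of MMP12 belong to a gene with at most 25 counts.

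Activators, binding partners and other inhibitors of MMPs made a list of 16 genes, 13 of them tested. With groups alone 3 rose with PDGF-BB+S100A4, 1 with S100A4 and 2 with PDGF-BB against control, and none fell. With the block 5 rose and 5 fell with PDGF-BB+S100A4 (median 0.05), 4 rose and 2 fell with S100A4 (median −0.02), and 6 rose and 5 fell with PDGF-BB (median −0.09). Over all genes the block called 56.1%, 10.7% and 48.8% in the same order, with medians of −0.03, −0.02 and −0.02, and groups alone called 22.0%, 0.563% and 14.7%. PLAU, urokinase, which generates the plasmin that activates several proMMPs, had 1528, 1467 and 1650 CPM in PDGF-BB+S100A4 libraries and 356, 381 and 421 CPM in S100A4 libraries. PLAU had 915, 998 and 980 CPM in PDGF-BB libraries and 194, 164 and 256 CPM in control libraries. The 4 groups did not overlap, in the order PDGF-BB+S100A4, PDGF-BB, S100A4 and control from the highest.

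With groups alone PLAU rose by 2.92 ± 0.15 on the log2 scale with PDGF-BB+S100A4 (adjusted p = 8.01e-06), by 0.91 ± 0.14 with S100A4 (0.0206) and by 2.23 ± 0.15 with PDGF-BB (4.82e-05). CD44, a hyaluronan receptor that can hold MMPs at the cell surface, rose by 0.93 ± 0.12 with PDGF-BB+S100A4 (adjusted p = 0.000399) and by 0.52 ± 0.11 with PDGF-BB (0.0137), both with groups alone. With S100A4 it rose by 0.54 ± 0.04 with the block (adjusted p = 3.82e-07), and groups alone gave 0.54 ± 0.11 (adjusted p = 0.0934). ITGB3, the integrin subunit of the αvβ3 receptor, rose with PDGF-BB+S100A4 by 2.15 ± 0.58 with groups alone (adjusted p = 0.0239). With the block that rise was 2.27 ± 0.12 (adjusted p = 2.67e-09). ITGB3 also rose with PDGF-BB, by 1.52 ± 0.12 with the block (adjusted p = 1.94e-07, 0.123 with groups alone). With S100A4, ITGB3 rose by 0.73 ± 0.12 with the block (adjusted p = 0.000962) and did not pass with groups alone. CAV1, caveolin-1, rose by 0.42 ± 0.05 with PDGF-BB with the block (adjusted p = 4.18e-06, 0.17 with groups alone) and had 0.11 ± 0.05 with PDGF-BB+S100A4 (0.0639 with the block, 0.775 with groups alone). With S100A4, CAV1 fell by 0.16 ± 0.05 with the block (adjusted p = 0.0404) and did not pass with groups alone.

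Of 15 matrix substrates, 14 were tested. With groups alone 1 fell with PDGF-BB+S100A4 and none changed with S100A4 or PDGF-BB. With the block 4 rose and 4 fell with PDGF-BB+S100A4 (median −0.03), 3 rose and 0 fell with S100A4 (median −0.02), and 3 rose and 4 fell with PDGF-BB (median −0.02). These medians were those of all genes to 2 decimals, and 8 of 14 and 7 of 14 called with PDGF-BB+S100A4 and PDGF-BB were near the 56.1% and 48.8% of all genes, while 3 of 14 with S100A4 stood beside 10.7%. With groups alone the all-gene shares were 22.0%, 0.563% and 14.7% for PDGF-BB+S100A4, S100A4 and PDGF-BB. COL3A1, the collagen III chain that MMP1 cuts, fell with PDGF-BB+S100A4 by 0.30 ± 0.09 (adjusted p = 0.0331 with groups alone). It also fell with PDGF-BB, by 0.27 ± 0.03 with the block (adjusted p = 1.1e-05), and groups alone gave −0.27 ± 0.09 (adjusted p = 0.0645). TNC, the matrix protein tenascin C, rose by 0.92 ± 0.07 with PDGF-BB+S100A4 with the block (adjusted p = 1.54e-07, 0.0977 with groups alone). It also rose by 0.53 ± 0.07 with PDGF-BB (adjusted p = 4.02e-05 with the block, 0.382 with groups alone). With S100A4, TNC rose by 0.25 ± 0.07 with the block (adjusted p = 0.0424) and did not pass with groups alone. LAMA4, a laminin chain of vascular basement membranes, rose by 0.39 ± 0.05 with S100A4 (adjusted p = 6.8e-05 with the block, 0.519 with groups alone) and fell by 0.36 ± 0.05 with PDGF-BB (2.44e-05 with the block, 0.115 with groups alone). LAMB1, another laminin chain, rose by 0.16 ± 0.03 with PDGF-BB+S100A4 with the block (adjusted p = 0.000638, 0.257 with groups alone). It also rose with PDGF-BB, by 0.16 ± 0.03 (adjusted p = 0.00108 with the block, 0.33 with groups alone).

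The list of transcription factors known to act at MMP and TIMP promoters held 20 genes, of which 16 were tested. With groups alone 10 rose and 1 fell with PDGF-BB+S100A4, 4 rose and 0 fell with S100A4, and 7 rose and 1 fell with PDGF-BB. The block gave 10 and 3, 7 and 2, and 11 and 1 in the same order, with medians of 0.87, 0.28 and 0.42 against all-gene medians of −0.03, −0.02 and −0.02. The shares of all genes called were 22.0%, 0.563% and 14.7% with groups alone and 56.1%, 10.7% and 48.8% with the block. RELB, an NF-κB subunit, rose by 1.58 ± 0.09 with PDGF-BB+S100A4 (adjusted p = 8.01e-06), by 1.44 ± 0.09 with S100A4 (0.000168) and by 0.76 ± 0.09 with PDGF-BB (0.000471), all with groups alone. NFKB1, which encodes the p105 precursor of another subunit, rose by 1.62 ± 0.16 (adjusted p = 0.000113), 1.09 ± 0.16 (0.0116) and 0.62 ± 0.16 (0.0249) in the same order, also with groups alone. With groups alone NFKB2 rose by 1.04 ± 0.11 with PDGF-BB+S100A4 (adjusted p = 0.000164) and by 0.95 ± 0.11 with S100A4 (0.00255). With PDGF-BB, NFKB2 rose by 0.13 ± 0.04 with the block (adjusted p = 0.026), and groups alone gave 0.13 ± 0.11 (adjusted p = 0.523). FOSL2, a member of the AP-1 family, fell by 1.04 ± 0.11 with PDGF-BB+S100A4 (adjusted p = 0.000162) and by 0.87 ± 0.11 with PDGF-BB (0.000736), both with groups alone. FOSL2 does not stand for that family: FOS, FOSB and FOSL1 were tested but are not named among these genes. JUN and JUND had no matched row, and JUNB was at 0 in all 12 libraries. With S100A4, FOSL2 fell by 0.30 ± 0.05 with the block (adjusted p = 0.0016), and groups alone gave −0.30 ± 0.11 (adjusted p = 0.547).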

How the data were processed

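RNA of 12 libraries was measured as whole-number read counts per gene, deposited by the authors without normalization. Per the submitters' processing notes, CASAVA 1.8.2, STAR 2.4, featureCounts 1.4.6 and the build Sscrofa 11.1 were used. The sources used here do not give annotation release, strand use or multimapping settings, so counts of near-identical, overlapping or antisense genes are uncertain. Symbols were matched to rows by Ensembl identifier, and coordinates were taken by symbol from RefSeq's gene table of the same build. Groups were taken from the sample titles. No column was left out.

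With edgeR 4.0.16, genes were filtered (filterByExpr, minimum count 10), scaled by TMM and tested two-sided with its quasi-likelihood test in R 4.3.3, with Benjamini-Hochberg adjustment over 12444 genes and a threshold of 0.05. Log2 CPM used a prior count of 2. The procedure was tested on simulated data. Same-numbered libraries deviated together (r = 0.746 to 0.908 in 18 pairs, and −0.676 to 0.136 in 36 pairs of different numbers), all 12 correlating best with their own number. Deviations were taken from the mean of the 3 libraries of a group. This pushes values for different numbers below 0 where same-numbered libraries agree, so they are no separate support. The pairing was taken from these data by the same-number values, before calls were compared. No label ties a number to an animal, so p-values reflect only how these libraries vary. The coefficient of biological variation was 27.2% with groups alone and 5.14% with the block. No 2 libraries of a group were repeats.

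The members and lists were chosen with earlier results of these data known. From each of 4 lists up to 4 genes with the smallest adjusted p against control (groups alone) were named, and for each member called the 3 genes of most similar pattern. MMP12 was described beside MMP1 after its values were seen. Alternatives were RLE and upper-quartile scaling, no filter, a stricter filter (a mean of 5 CPM, and 1 CPM in 3 libraries), DESeq2 1.42.0, only the groups compared, the replicate block, and leaving out each replicate number or library.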

Additional observations from a re-analysis of the deposited data

How the results depend on the processing

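Since the replicate numbers paired the libraries, the calls rest on the replicate block, which moved the count of called genes from 0 to 3 for PDGF-BB+S100A4, 1 for S100A4 and 3 for PDGF-BB against control, to 2 for PDGF-BB+S100A4 against PDGF-BB, to 3 for PDGF-BB+S100A4 against S100A4 and to 3 for S100A4 against PDGF-BB. The interaction kept a count of 0. Alternatives to the block fit that combined it with another scaling, a filter, DESeq2 or a library left out were added after seeing the data. With DESeq2 and the block, 1 gene was called for PDGF-BB+S100A4 against PDGF-BB and 1 in the interaction, TIMP1 in each. Leaving out a replicate number or library moved the count of called genes with the block between 0 and 1 for S100A4 against control, between 1 and 2 for PDGF-BB+S100A4 against PDGF-BB, and between 0 and 2 for the interaction (2 without replicate 2).

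Over all genes, DESeq2 with groups alone called 205 genes against 70 with edgeR for S100A4 against control, and 123 against 34 for PDGF-BB+S100A4 against PDGF-BB. With the block, upper-quartile scaling lowered the share of calls that were higher to 38% from 49.1% for PDGF-BB+S100A4 against control. Fits of only the groups compared called 28 to 1911 genes in the 3 comparisons with control. Leaving out 1 library or replicate number, the calls over all genes ranged from 502 to 3349 with groups alone and 5312 to 7008 with the block for PDGF-BB+S100A4 against control, from 0 to 82 and 608 to 1521 for S100A4, and from 131 to 2139 and 4372 to 6332 for PDGF-BB; the interaction ranged from 1 to 117 with the block. Reversals concerned values that did not pass. With upper-quartile scaling MMP14 lay at −0.0057 for PDGF-BB+S100A4 and −0.0368 for PDGF-BB against control (−0.011 and −0.0413 with the block), and for S100A4 against control MMP2 lay at −0.0178 (−0.0189 with the block) and TIMP1 at −0.0014. The stricter filter gave MMP14 −0.0007 for PDGF-BB against control (−0.007 with the block), and the block itself gave TIMP1 −0.0075 for S100A4 against control.

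With groups alone, leaving out 1 library or all 4 libraries of 1 replicate number moved log2 fold changes as follows. For PDGF-BB+S100A4 against control the range was −0.0416 to 0.17 for MMP14, −0.12 to 0.0169 for MMP2 and −0.039 to 1.15 for TIMP3. For S100A4 against control it was −1.65 to 1.81 for MMP1, −0.12 to 0.0639 for MMP14, −0.0526 to 0.085 for MMP2, −0.54 to 0.49 for TIMP1 and −0.95 to 0.15 for TIMP3. For PDGF-BB against control it was −0.70 to 1.99 for MMP1, −0.10 to 0.10 for MMP14 and −0.17 to 1.27 for TIMP3. For PDGF-BB+S100A4 against PDGF-BB it was −0.31 to 2.28 for MMP1, −0.0562 to 0.17 for MMP14, −0.0023 to 0.14 for MMP2 and −0.70 to 0.71 for TIMP3. For PDGF-BB+S100A4 against S100A4 it was −0.12 to 3.22 for MMP1, −0.0218 to 0.19 for MMP14 and −0.14 to 0.0136 for MMP2. For S100A4 against PDGF-BB it was −2.26 to 1.12 for MMP1 and −0.14 to 0.0785 for MMP14. For the interaction it was −0.84 to 2.62 for MMP1, −0.0364 to 0.19 for MMP14, −0.0145 to 0.14 for MMP2, −0.0905 to 0.94 for TIMP1 and −0.27 to 1.17 for TIMP3.

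With the replicate block the ranges that crossed 0 were narrower. They were −0.37 to 0.50 for MMP1, −0.0448 to 0.0095 for MMP14, −0.0253 to 0.0324 for MMP2 and −0.13 to 0.063 for TIMP1 with S100A4 against control, −0.0168 to 0.0598 for MMP14 with PDGF-BB against control, and −0.11 to 0.14 for TIMP3 with PDGF-BB+S100A4 against PDGF-BB. The cause of these changes was not tested. The calls of MMP1, TIMP1 and TIMP3 for PDGF-BB+S100A4 against control and against S100A4 held in all 19 alternatives with the block, as did those of TIMP1 and TIMP3 for PDGF-BB against control. Depth limits MMP9, MMP12 and MMP13, and MMP1 in replicate 3.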
